A study of Homo sapiens with 6 samples.

Results

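COLEC11, RENBP, S100A4, WDSUB1, HBP1, ZCWPW1, FADS3, STC1 and TMEM187 are 9 genes of human embryonic kidney cells whose signal lay farther from the control after 4 µg of a microRNA plasmid than after 2 µg, or moved the other way. They were picked by gene symbol from 18774 genes with 1 symbol on the array, because the change at 4 µg was larger in size than the change at 2 µg or opposite to it. The choice used the control, the 2 µg and the 4 µg arrays, so every level and difference of these 9 genes below is a description and carries no test. The 9 genes had 10 probes, all 10 of which passed the detection filter, and 8018 genes passed it in all.

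The arrays measured HEK293T, an established line derived from human embryonic kidney that carries the SV40 large T antigen. The control cells were left untransfected, and 2 further groups were transfected in a well of a plate with 2 µg or 4 µg of a plasmid holding the cloned miR-23a/27a/24-2 cluster, with 2 arrays in each of the 3 groups. No group received an empty plasmid, so plasmid load and the microRNAs cannot be told apart. The labels give all 6 arrays as 1 chip with a pair of positions for each group, so position and group cannot be told apart either, and they give no time after transfection. The series text calls the duplicates biological.

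The miR-23a, miR-27a and miR-24-2 hairpins lie next to each other and are made as 1 transcript, which is cut into mature microRNAs of both arms. A microRNA guides Argonaute proteins to messages that pair with its seed, and such messages are usually repressed. The mature sequences are given because the plasmid carries them; capitals mark the seed, bases 2 to 8 from the 5′ end. They are from RefSeq, build GRCh38.p14, minus strand of chromosome 19. The locations are chr19:13836595-13836615 for hsa-miR-23a-3p, chr19:13836447-13836467 for hsa-miR-27a-3p and chr19:13836289-13836310 for hsa-miR-24-3p.
hsa-miR-23a-3p: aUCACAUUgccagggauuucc
hsa-miR-27a-3p: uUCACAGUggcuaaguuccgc
hsa-miR-24-3p: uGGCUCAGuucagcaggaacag
The 3 seeds differ from each other. Whether the 9 messages hold sites for them was not analysed here.

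The 9 genes have unrelated roles. COLEC11 and STC1 encode secreted proteins, a collectin that binds sugars on microbes and starts the lectin pathway of complement, and a glycoprotein hormone that inhibits the growth factor protease PAPP-A. S100A4 encodes a small calcium-binding protein that binds non-muscle myosin and is abundant in fibroblasts and motile cells. RENBP is the epimerase that turns N-acetylglucosamine into N-acetylmannosamine, and FADS3 is a desaturase that acts on the sphingoid base of ceramides. HBP1 is a repressor of transcription that binds the retinoblastoma protein, and ZCWPW1, in mouse meiosis, reads the histone marks that PRDM9 sets. WDSUB1 joins WD repeats to a U-box, a domain of ubiquitin ligases, and TMEM187 is a membrane protein.

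The median number of beads behind a probe was 40 on every array, and 9278 to 10371 of 48701 probes were detected per array (detection p-value under 0.01). Of 6 intermediate filament genes taken as HEK293T markers, VIM, KRT8 and KRT18 were detected on all 6 arrays and INA on 0 arrays. NEFL was detected on 2 of 2 control arrays, 0 of 2 at 2 µg and 2 of 2 at 4 µg. NEFM was detected on 2 of 2 control arrays and 1 of 2 at each dose. Of 6 haematopoietic markers on the array 5 were detected on 0 arrays, PTPRC and CD14 among them, and the other was CD68. Of 7 fibroblast markers 4 were detected on 0 arrays. Duplicates correlated at 0.9898 to 0.9941 across tested genes (a correlation over genes, not over replicates). A p-value here measures the spread between these duplicates, and with 2 arrays per group the number of arrays limits the precision. In RNA from a whole culture, fewer cells with a message and less of it per cell cannot be told apart. Levels below are normalized log2 intensities, log2 differences carry the standard error (SE) of a limma fit to n = 2 arrays per group, and levels of different genes are not comparable because each probe binds with its own strength.

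At 4 µg 8 of the 9 genes were higher than the control and 1, STC1, was lower. At 2 µg 6 were higher, and S100A4, STC1 and TMEM187 were lower. HBP1, 1 of these 6, was detected on 0 of 2 control arrays and 0 of 2 arrays at 2 µg. It passed the detection filter only through its 4 µg arrays. Its place in the counts and medians here thus rests on undetected signals. The median log2 difference of the 9 genes was 0.42 at 2 µg and 1.07 at 4 µg, against 0.03 at each dose over all 8018 tested genes. In each of the 3 comparisons the arrays of the groups did not overlap for any of the 9 genes. Such separation was found for 69.6% of tested genes at 2 µg against the control, 65.8% at 4 µg against the control and 57.3% at 4 µg against 2 µg. Upward separation made up 36.1%, 35.6% and 29.4% of tested genes in these comparisons and downward separation 33.4%, 30.2% and 27.9%. Since the choice rested on these comparisons, nothing is read from these counts.

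**Figure D1:**
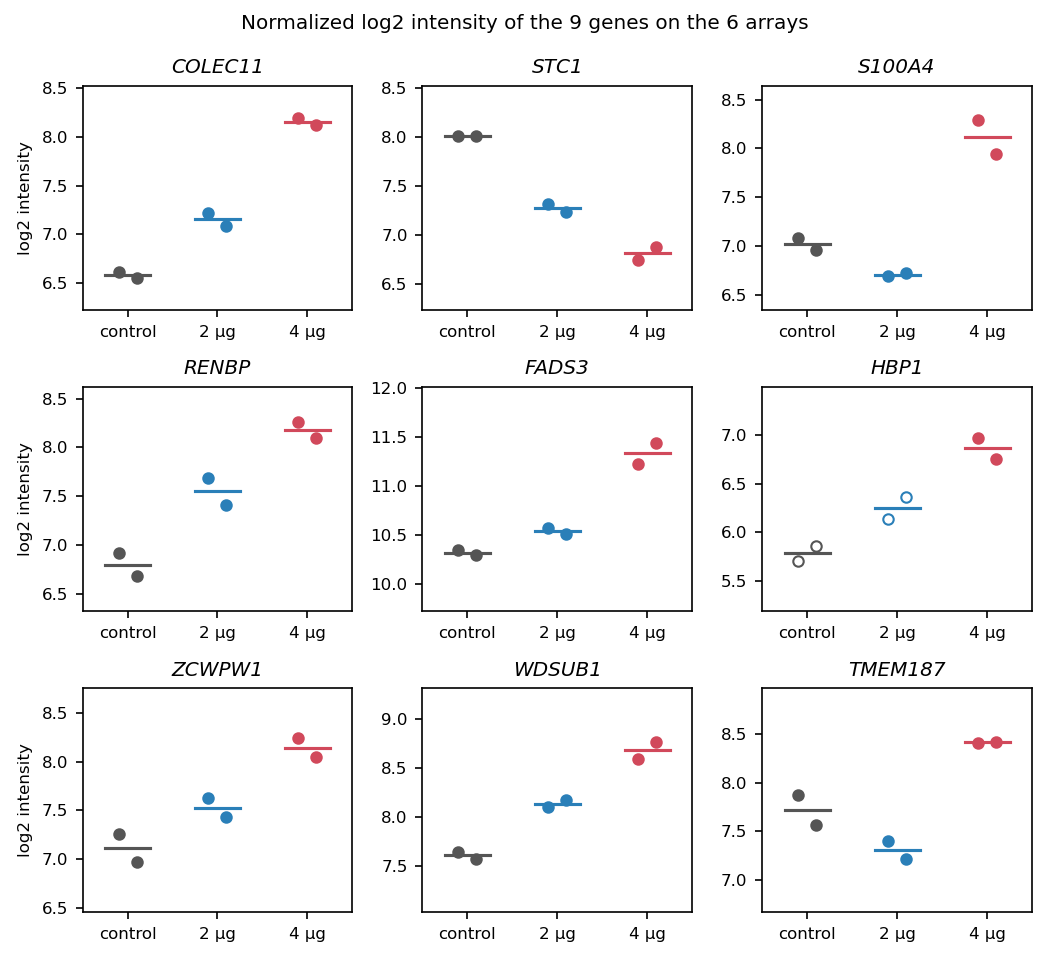
Normalized log2 intensity (vertical axis, each panel spanning the same log2 range) of the 9 genes in control, 2 µg and 4 µg cells. Each point is 1 array, bars are the mean of 2 arrays, and open points are arrays on which the probe was not detected. The 4 µg arrays lie outside both other groups in every panel.

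Among the secreted proteins, COLEC11 had log2 levels of 6.61 and 6.55 on the control arrays, 7.22 and 7.09 at 2 µg and 8.19 and 8.12 at 4 µg. The 3 groups formed separate steps in the order of the dose. The difference from the control was 0.57 (SE 0.13) at 2 µg and 1.57 (SE 0.13), or 2.97-fold, at 4 µg, the largest of the 9. Its control signal was close to background, with detection p-values of 0.00582 on both arrays.

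STC1 was the member that was lower at both doses. Its log2 level was 8.01 on both control arrays, 7.32 and 7.23 at 2 µg, and 6.74 and 6.88 at 4 µg. The steps went down with the dose and did not touch. The difference from the control was -0.73 (SE 0.13) at 2 µg and -1.20 (SE 0.13) at 4 µg, where the signal was 2.29-fold lower. That 4 µg signal was close to background, with a detection p-value of 0.00218 on replicate 1. Without background correction the 4 µg difference was -0.66. The step from 2 µg to 4 µg, -0.46 (SE 0.13), was the smallest in size among the 9 genes.

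S100A4 was one of 2 genes that moved in opposite directions at the doses. Levels were 7.08 and 6.96 in the control, 6.69 and 6.72 at 2 µg and 8.29 and 7.94 at 4 µg. The 2 µg arrays were below both control arrays and the 4 µg arrays above them. The S100A4 signal at 2 µg was close to background, with detection p-values of 0.00728 and 0.00146. The log2 difference from the control was -0.32 (SE 0.15) at 2 µg and 1.09 (SE 0.15) at 4 µg, and 4 µg exceeded 2 µg by 1.41 (SE 0.15), a 2.65-fold difference and the largest step between the doses among the 9. The other probe of S100A4, on the same arrays, gave -0.42, 1.00 and 1.42 for these differences, and was detected on 1 of 2 arrays at 2 µg. The summed intensity of the 7 fibroblast markers was 672.3 to 685.8 in the control, 451.6 to 484.7 at 2 µg and 550.7 to 557.8 at 4 µg. The sum was lower than the control at both doses. LUM, 1 of the 7, had mean log2 levels of 6.79 in the control, 6.06 at 2 µg, where it was detected on 0 of 2 arrays, and 7.0 at 4 µg, the order of groups seen for S100A4. The remaining detected markers, COL1A1 and COL3A1, did not share that order and stayed below their control means at both doses. COL1A1 had a control mean of 7.34, against 6.36 after 2 µg and 6.47 after 4 µg, with detection on 1 of 2 arrays at each dose. COL3A1, detected on all arrays, had a control mean of 7.64, against 6.76 after 2 µg and 6.98 after 4 µg. The part of these markers in the S100A4 values was not tested.

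TMEM187, the other gene with opposite directions, read 7.87 and 7.57 in the control, 7.40 and 7.22 at 2 µg and 8.41 and 8.42 at 4 µg. As for S100A4, the order of the groups was 2 µg, control, 4 µg, without overlap. Its log2 difference was -0.41 (SE 0.14) at 2 µg and 0.69 (SE 0.14) at 4 µg, the smallest change at 4 µg among the 9. Between the doses it differed by 1.11 (SE 0.14), or 2.15-fold. The gap between the highest 2 µg array and the lowest control array was narrower than the spread of the control arrays, which differed from each other by more than the 2 µg arrays did.

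Of the enzymes, RENBP had levels of 6.92 and 6.68 in the control, 7.69 and 7.41 at 2 µg and 8.26 and 8.10 at 4 µg. The control signal was close to background, with detection p-values of 0.000728 and 0.00218. The RENBP difference from the control was 0.75 (SE 0.15) at 2 µg, the largest at that dose among the 9. At 4 µg it was 1.38 (SE 0.15), or 2.60-fold, and 0.78 without background correction. RENBP thus had more of its change in place at 2 µg than the other members that were higher at both doses, with a ratio of the 4 µg to the 2 µg log2 change of 1.84.

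FADS3 lay at the other end, with a ratio of 4.53. It read 10.34 and 10.29 in the control, 10.57 and 10.51 at 2 µg and 11.23 and 11.44 at 4 µg. The log2 difference was 0.23 (SE 0.13) at 2 µg and 1.02 (SE 0.13), or 2.03-fold, at 4 µg. FADS3 was well above background on every array, with scanner intensities from 1278.4 to 3316.7.

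The nuclear proteins were HBP1 and ZCWPW1. HBP1 was detected on 0 of 2 control arrays, 0 of 2 arrays at 2 µg and 2 of 2 arrays at 4 µg, with levels of 5.71 and 5.86, 6.14 and 6.36, and 6.97 and 6.75. Below detection there is only a bound, so HBP1 at 4 µg was at least 1.33-fold above the control and at least 1.29-fold above 2 µg, and no fold is given for 2 µg against the control. The measured means, which rest on these undetected arrays, gave log2 differences from the control of 0.46 (SE 0.14) at 2 µg and 1.07 (SE 0.14) at 4 µg. ZCWPW1 was detected on all arrays and read 7.26 and 6.97, then 7.63 and 7.43, then 8.24 and 8.05. Its differences from the control were 0.42 (SE 0.15) at 2 µg and 1.04 (SE 0.15), or 2.05-fold, at 4 µg.

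WDSUB1, the U-box protein, read 7.64 and 7.57 in the control, 8.10 and 8.17 at 2 µg and 8.59 and 8.77 at 4 µg. The differences from the control were 0.53 (SE 0.13) and 1.07 (SE 0.13), or 2.10-fold at 4 µg, so that the step from 0 to 2 µg and the step from 2 to 4 µg were alike in log2 size. Bead standard errors of this gene were 5.60% to 6.08% of its signal, above the array medians of 4.22% to 4.46%.

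**Figure D2:**
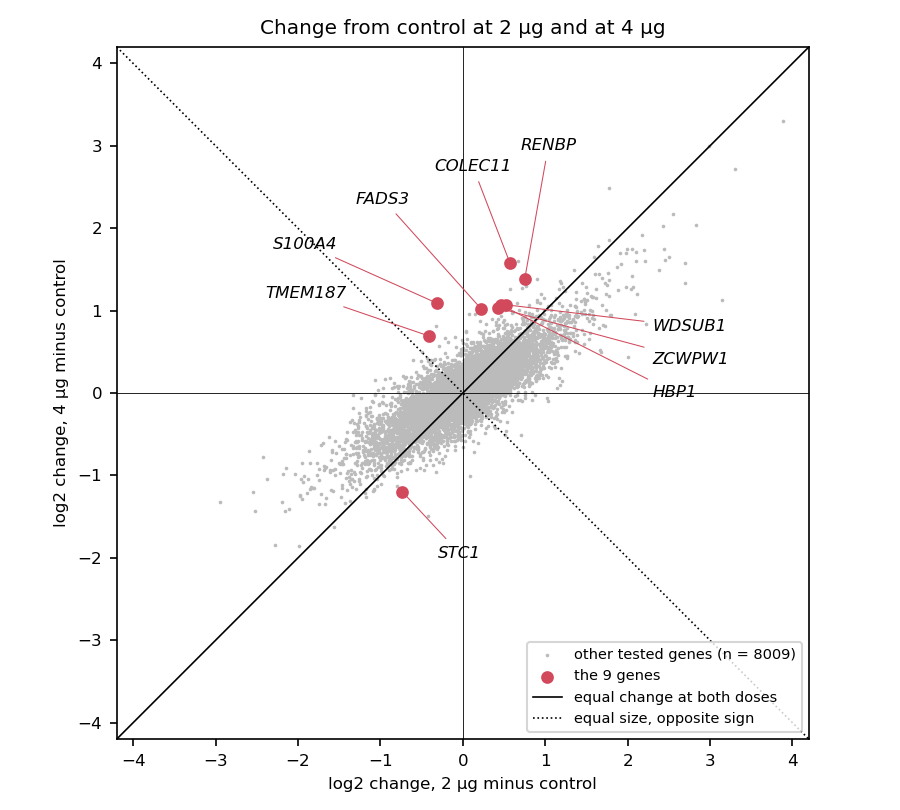
Log2 change from the control at 2 µg (horizontal axis) and at 4 µg (vertical axis), with grey points for 8009 other tested genes and red points for the 9 genes. Both axes share the control arrays. S100A4 and TMEM187 lie left of 0 and above it, STC1 lies below the line of equal change on the lower left, and the other 6 lie above that line on the upper right.

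The rule itself was met by many genes. In 43.5% of tested genes the 4 µg change was larger than or opposite to the 2 µg change, and in 19.3% it was opposite. The median size of the log2 change over all tested genes was 0.32 at 2 µg and 0.24 at 4 µg. The member nearest to the limit by size was TMEM187, whose 4 µg change exceeded its 2 µg change by 0.28. Next was STC1, with an excess of 0.46, and the widest was COLEC11, with 1.00. No member lay outside the limit.

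Sizes, but not directions, depended on how background was handled. Without background correction the 4 µg differences of 8 of the 9 genes shrank to between 0.44 for HBP1 and 0.86 for COLEC11 in size, while that of FADS3 was 0.95. The 2 µg difference of S100A4 was then -0.15. With the authors' processed intensities HBP1 came to 0.82 at 2 µg and 1.54 at 4 µg. All 27 differences kept their sign under every alternative run for them, and all tested members met the rule.

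Likeness was measured as the root mean square difference over the 6 arrays after each gene was centred on its control mean, on the log2 scale. HBP1, which has no detected control level to centre on, was left out. Among the other 8, WDSUB1 and ZCWPW1 were nearest to each other (0.161), COLEC11 was nearest to RENBP (0.167) and S100A4 to TMEM187 (0.270), while STC1 had no near partner (1.112 to the closest). Among the other tested genes, the 2 with the smallest distance to each of these 8 members were sought. Values are given only for those detected in every group, since the rest have only a bound in at least 1 group.

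WDSUB1 was matched by PPP1R3F, a glycogen-targeting subunit of protein phosphatase, at a distance of 0.063, with log2 changes of 0.51 at 2 µg and 1.01 at 4 µg. RENBP was matched by NIM1K, a protein kinase (0.172, changes of 0.72 and 1.27), which was detected on 1 of 2 control arrays. For ZCWPW1 it was NEU1, the lysosomal sialidase (0.159, changes of 0.49 and 0.79). TMEM97, a sterol-regulated membrane protein, was near to STC1 (0.138, changes of -0.80 and -0.97). For S100A4 the match detected in every group was TMEM116 (0.298, changes of 0.04 and 0.75). For TMEM187 it was LMBRD1, a lysosomal exporter of cobalamin (0.210, changes of -0.39 and 0.35). RENBP, ZCWPW1, STC1, S100A4 and TMEM187 each had a nearer gene that was not detected in every group. The genes chosen by the same distance but not detected in at least 1 group were GPNMB and FOSB for COLEC11, FOSB for RENBP, CBFA2T2 for S100A4, PTPRR for WDSUB1, IL20RB for ZCWPW1, LINC00921 and MED7 for FADS3, NUDT8 for STC1 and CDA for TMEM187. Many genes were about as near to some members. Within a distance of 0.3, detected or not, lay 161 other tested genes for WDSUB1, 100 for STC1 and 95 for ZCWPW1. There were 88 for FADS3, 54 for TMEM187, 18 for RENBP, 5 for COLEC11 and 2 for S100A4. These are descriptions over 6 arrays with no test.

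Genes of the same families and pathways were read from the same fit, and limma tests are given for them. The lists were chosen with earlier results of these data known, and the genes named were picked by smallest p. Over all tested genes limma called 41.6% at 2 µg against the control, 22.0% at 4 µg against the control and 8.79% at 4 µg against 2 µg, at an adjusted p under 0.05 (Benjamini-Hochberg). At 2 µg 21.8% of tested genes were called higher and 19.8% lower, at 4 µg 11.8% and 10.2%, and between the doses 5.23% and 3.57%. The changes over all tested genes had medians of 0.03, 0.03 and 0.00 on the log2 scale. Adjusted p-values are from limma over all tested genes. All the comparisons with the control share its 2 arrays.

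S100 proteins did not move together. Of 6 tested besides S100A4, 1 rose, 1 fell and 4 were not called at 4 µg, with a median log2 change of -0.19, and 2 rose, 3 fell and 1 was not called at 2 µg, with a median of -0.46. S100A3, the next gene to S100A4 on chromosome 1, was not detected in the control (0 of 2 arrays). At 4 µg it was at least 1.43-fold higher (adjusted p = 0.000515). S100A11, which binds annexins, fell by 0.89 (SE 0.13) at 4 µg (adjusted p = 0.00184), and S100A10, the annexin A2 partner, differed by -0.39 (SE 0.13, adjusted p = 0.0607). Between the doses S100P and S100A13 went opposite ways. S100P was lower at 4 µg than at 2 µg by 1.13 (SE 0.14; adjusted p = 0.00307), after a rise of 1.03 (SE 0.14) at 2 µg against the control. At 4 µg it differed from the control by -0.09 (SE 0.14, adjusted p = 0.664). S100A13, which takes part in the export of growth factors, had a change from the control of -0.73 (SE 0.15, adjusted p = 0.00319) at 2 µg. At 4 µg its change was -0.18 (SE 0.15, adjusted p = 0.422), nearer to the control. It was higher at 4 µg than at 2 µg by 0.55 (SE 0.15, adjusted p = 0.0477). The S100A13 call ended without any one of control replicate 1, control replicate 2, 2 µg replicate 1, 4 µg replicate 1 or 4 µg replicate 2. No detection filter (adjusted p = 0.106), detection at a p-value under 0.05 (0.0587) and a fit of the dose groups alone (0.066) ended it too. The mean of the S100A13 probes gave 0.27 (adjusted p = 0.215).

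Of 5 tested stanniocalcin and insulin-like growth factor genes besides STC1, 1 rose and 3 fell at each dose, with medians of -0.91 at 2 µg and -0.67 at 4 µg, and 1 was not called. STC2, the paralogue of STC1, rose by 1.58 (SE 0.15) at 2 µg (adjusted p = 3.76e-05) and by 0.94 (SE 0.15) at 4 µg (adjusted p = 0.00203), the opposite direction to STC1. STC2 was lower at 4 µg than at 2 µg by 0.64 (SE 0.15, adjusted p = 0.0264), and the call did not hold without 2 µg replicate 1 (0.112), 4 µg replicate 1 (0.166) or 4 µg replicate 2 (0.0974), after scaling to the median of all probes (0.0747) and with no detection filter (0.0677). IGFBP5, a binding protein of these growth factors, had log2 changes of -2.95 (SE 0.14; adjusted p = 1.09e-06) and -1.32 (SE 0.14; adjusted p = 0.000348), so it lay nearer to the control at 4 µg. IGF1R, the receptor, had changes of -1.01 (SE 0.14, adjusted p = 0.000347) at 2 µg and -0.73 (SE 0.14, adjusted p = 0.00581) at 4 µg. The 4 µg call did not hold without control replicate 1 or 4 µg replicate 2. The 2 µg call held under every alternative.

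**Figure D3:**
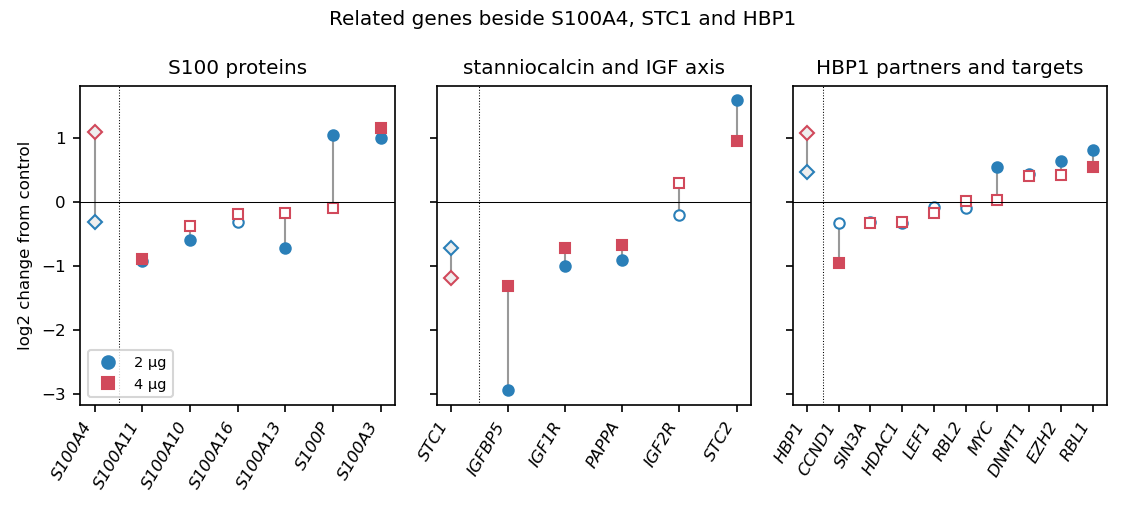
Log2 change from the control (vertical axis) at 2 µg (blue circles) and 4 µg (red squares) for tested S100, stanniocalcin and HBP1-related genes, with filled symbols for limma calls. Pale diamonds left of the dotted line are S100A4, STC1 and HBP1, which were not tested, and HBP1 was below detection in the control and at 2 µg. STC2 lies on the opposite side of 0 from STC1, and S100P lies above 0 at 2 µg and near it at 4 µg.

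Among 9 tested partners and targets of HBP1, 1 rose, 1 fell and 7 were not called at 4 µg, with a median of 0.00. At 2 µg 4 rose, 0 fell and 5 were not called, with a median of -0.09. CCND1, the cyclin D1 gene that HBP1 is known to repress, fell by 0.95 (SE 0.13) at 4 µg (adjusted p = 0.00126), while at 2 µg its change was -0.33 (SE 0.13, adjusted p = 0.0688). It was lower at 4 µg than at 2 µg by 0.62 (SE 0.13; adjusted p = 0.0204), and the call did not hold without 2 µg replicate 2 (0.0667), 4 µg replicate 1 (0.101) or 4 µg replicate 2 (0.127). Scaling to the median of all probes also ended it (0.0884). RBL1, a pocket protein, rose by 0.54 (SE 0.13) at 4 µg (adjusted p = 0.016), and the call did not hold without any one of control replicate 1 (0.0825), control replicate 2 (0.0576), 4 µg replicate 1 (0.0754) or 4 µg replicate 2 (0.112), nor without background correction (0.0636). At 2 µg RBL1 rose by 0.80 (SE 0.13, adjusted p = 0.000894). DNMT1, the maintenance DNA methyltransferase, rose by 0.43 (SE 0.13, adjusted p = 0.024) at 2 µg and had a change of 0.41 (SE 0.13, adjusted p = 0.052) at 4 µg. The 2 µg call of DNMT1 did not hold without control replicate 1 (0.121), control replicate 2 (0.0564) or 2 µg replicate 1 (0.112), nor with scaling to the median of all probes (0.179) or of tested genes (0.136) or the authors' processed intensities (0.0651). MYC, a transcription factor of growth genes, rose by 0.54 (SE 0.17, adjusted p = 0.0264) at 2 µg and had a change of 0.02 (SE 0.17, adjusted p = 0.934) at 4 µg. Its 2 µg call did not hold without control replicate 1 (0.202) or 2 µg replicate 1 (0.128), nor with no detection filter (0.0737).

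Around RENBP, 3 of 12 tested genes of amino sugar and sialic acid metabolism rose at 4 µg and 0 fell, with a median of 0.04. They were NEU1, which removes sialic acid in lysosomes, with 0.79 (SE 0.15; adjusted p = 0.00619), GFPT1, the entry enzyme of the hexosamine pathway, with 0.48 (SE 0.13; adjusted p = 0.0286), and GNPDA1, which returns glucosamine phosphate to glycolysis, with 0.40 (SE 0.13; adjusted p = 0.0494). NEU1 was no longer called without control replicate 2 (0.0509). GFPT1 was no longer called without any one of control replicate 1 (0.154), control replicate 2 (0.0501), 4 µg replicate 1 (0.2) or 4 µg replicate 2 (0.0719), and GNPDA1 likewise (0.201, 0.088, 0.24 and 0.144). Testing all genes with no detection filter also ended the calls of GFPT1 (0.0528) and GNPDA1 (0.0714), and scaling to the median of tested genes (0.0977) or detection at a p-value under 0.05 (0.0635) ended that of GNPDA1. Between the doses 0 of 12 were called, and 0 had an unadjusted p under 0.05. CMAS, which activates sialic acid, differed between the doses by 0.27 (SE 0.12, adjusted p = 0.188) and SLC35A1, its carrier into the Golgi, by 0.33 (SE 0.15, adjusted p = 0.188).

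Among 7 tested collectin and complement genes 1 fell at 4 µg and 0 rose, with a median of -0.01. The one that fell was COLEC12, a scavenger receptor of the same collectin family as COLEC11, which was 1.65-fold lower at 4 µg (log2 change -0.72, SE 0.12; adjusted p = 0.00355) and 2.21-fold lower at 2 µg (adjusted p = 8.45e-05). Its direction was opposite to that of COLEC11 at both doses. CD55, a membrane inhibitor of complement, was lower at 4 µg than at 2 µg by 0.54 (SE 0.14; adjusted p = 0.0357), and the call did not hold when any 1 array other than 2 µg replicate 1 was left out (control replicate 1 gave 0.056, control replicate 2 gave 0.0559, 2 µg replicate 2 gave 0.11, 4 µg replicate 1 gave 0.181 and 4 µg replicate 2 gave 0.154). Scaling to the median of all probes (0.133), no detection filter (0.0724) and a fit of the dose groups alone (0.0555) ended it too. Against the control CD55 rose by 0.89 (SE 0.14, adjusted p = 0.000586) at 2 µg. At 4 µg its change was 0.35 (SE 0.14, adjusted p = 0.0922). FCN3, a ficolin, had a change of 0.20 (SE 0.14, adjusted p = 0.314) at 4 µg.

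Fatty acid and sphingolipid genes were lower where they were called at 4 µg, unlike FADS3. Of 21 tested 4 fell, 0 rose and 17 were not called, with a median of -0.18, and 10 had an unadjusted p under 0.05. ELOVL6, an elongase, had -0.47 (SE 0.14; adjusted p = 0.0356), TECR, the last enzyme of elongation, -0.51 (SE 0.16; adjusted p = 0.0399), SCD, the stearoyl desaturase, -0.42 (SE 0.13; adjusted p = 0.041) and FADS1, a front-end desaturase, -0.40 (SE 0.13; adjusted p = 0.0421). Each of these 4 calls ended without control replicate 2 (adjusted p of 0.196, 0.225, 0.151 and 0.14 in that order), without 4 µg replicate 1 (0.11, 0.0695, 0.0852 and 0.237) and without 4 µg replicate 2 (0.194, 0.24, 0.267 and 0.124). Without control replicate 1 SCD (0.105) and FADS1 (0.112) were lost too. All 4 were lost with scaling to the median of all probes (0.288, 0.249, 0.163 and 0.388) and with no detection filter (0.0677, 0.0928, 0.0643 and 0.0575), and the authors' processed intensities left only SCD called. At 2 µg 2 of 21 rose, 6 fell and 13 were not called, with a median of -0.14. SCD had -0.81 (SE 0.13, adjusted p = 0.000791) there and FADS1 -0.79 (SE 0.13, adjusted p = 0.000738). These 2 calls held under every alternative. TECR had -0.62 (SE 0.16, adjusted p = 0.00895) at 2 µg and ELOVL6 -0.18 (SE 0.14, adjusted p = 0.315). At 4 µg against 2 µg limma called 0 of 21, with 4 at an unadjusted p under 0.05. KDSR, an enzyme of sphingoid base synthesis, had -0.40 (SE 0.13, adjusted p = 0.0805).

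Of 4 tested U-box ligases besides WDSUB1, 1 fell at 4 µg and 0 rose, with a median of -0.22. STUB1, the chaperone-linked ligase CHIP, fell by 0.52 (SE 0.14; adjusted p = 0.0222), and the call did not hold without control replicate 1 (0.0934), control replicate 2 (0.0809) or 4 µg replicate 2 (0.207), after scaling to the median of all probes (0.0699) and without background correction (0.0778). UBE4B had -0.37 (SE 0.14, adjusted p = 0.087), UBE4A -0.08 (SE 0.13, adjusted p = 0.697) and PRPF19 0.04 (SE 0.12, adjusted p = 0.85). At 2 µg 1 of the 4 fell, 0 rose and 3 were not called. The one that fell was UBE4B, by 0.71 (SE 0.14, adjusted p = 0.00294). Of the proteins that share the CW domain with ZCWPW1, MORC2 and MORC4 were tested. At 4 µg limma called 0 of these 2, with 0 at an unadjusted p under 0.05, and the changes were -0.09 (SE 0.12) and -0.01 (SE 0.13). At 2 µg MORC2 fell by 0.44 (SE 0.12, adjusted p = 0.015) and MORC4 was not called. The MORC2 call did not hold without control replicate 2. Scaling to the median of all probes (0.0892) and the authors' processed intensities (0.0551) ended it too.

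The 9 genes lie on chromosomes 1, 2, 7, 8, 11 and X, and RENBP and TMEM187 are close neighbours on the X chromosome, with HCFC1 between them. Of 49 protein-coding genes that RefSeq places within 3 genes of a member, 19 were tested. At 4 µg 5 rose, 1 fell and 13 were not called, with a median of 0.15, and between the doses limma called 0 of 19, with 4 at an unadjusted p under 0.05. HCFC1, a chromatin cofactor, differed from the control by 0.09 (SE 0.12, adjusted p = 0.646) at 4 µg and IRAK1, a kinase on the far side of TMEM187, had -0.09 (SE 0.14, adjusted p = 0.693). The difference between the doses was 0.14 (SE 0.12) for HCFC1, 0.63 for RENBP and 1.11 for TMEM187.

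Beside FADS3 on chromosome 11, RAB3IL1, an exchange factor for Rab GTPases, rose by 0.75 (SE 0.14) at 4 µg (adjusted p = 0.00504), with 0.27 (SE 0.14, adjusted p = 0.147) at 2 µg. BEST1, a chloride channel gene beyond RAB3IL1 that was detected on 1 of 2 control arrays, rose by 1.78 (SE 0.13) at 4 µg (adjusted p = 4.15e-05) and by 1.64 (SE 0.13) at 2 µg. On the opposite flank FADS1 fell, so the 3 genes nearest to FADS3 that were tested did not share a direction. COG5, a Golgi tethering factor whose annotated span overlaps that of HBP1, was not detected in the control (0 of 2 arrays). It was at least 2.34-fold higher at 4 µg (adjusted p = 0.00122) and at least 2.2-fold higher at 2 µg (adjusted p = 0.000447). MARCHF7, a ubiquitin ligase near WDSUB1, rose by 0.64 (SE 0.14, adjusted p = 0.00431) at 2 µg and by 0.65 (SE 0.14, adjusted p = 0.00888) at 4 µg. The 4 µg call did not hold without control replicate 1 or 4 µg replicate 2. The 2 µg call held under every alternative.

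**Figure D4:**
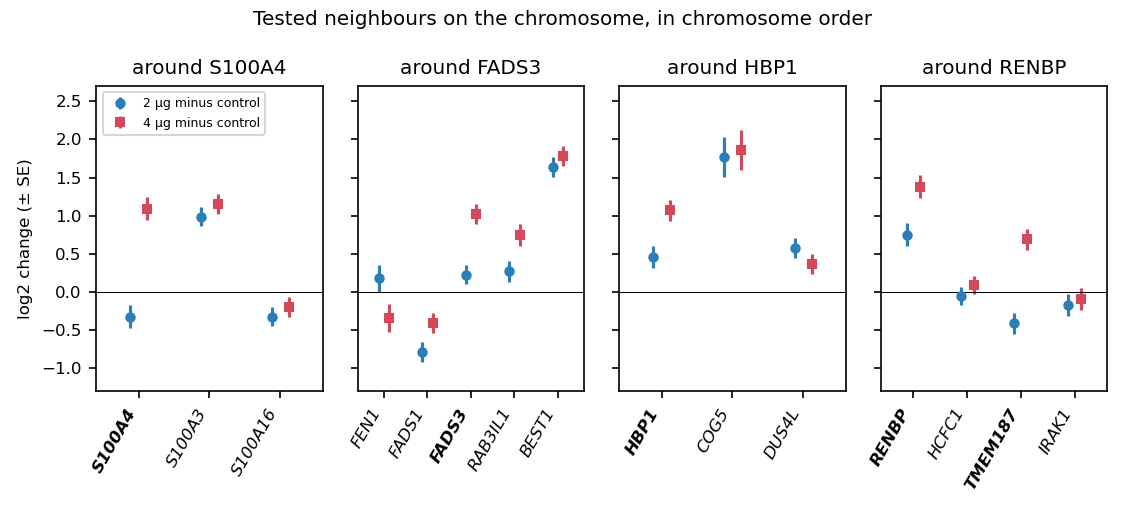
Log2 change from the control (vertical axis, bars are SE) at 2 µg and at 4 µg for S100A4, FADS3, HBP1, RENBP and TMEM187 (bold) and their tested neighbours in chromosome order. HCFC1 and IRAK1 lie near 0 at both doses, between and beside RENBP and TMEM187.

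Promoter sequences are given for S100A4 and TMEM187, which moved in opposite directions at the doses, and for RENBP, the neighbour of TMEM187. Each runs from 250 bases before to 50 bases after the start of the gene, 5′ to 3′ on the gene's strand, from RefSeq build GRCh38.p14. They are chr1:153545757-153546056 on the minus strand for S100A4, chrX:153972504-153972803 on the plus strand for TMEM187 and chrX:153944594-153944893 on the minus strand for RENBP. Capitals mark matches on either strand to any of 7 motifs: AP-1 (TGANTCA), CRE (TGACGTCA), the ATF4 composite site (TGATGNAA), the E-box (CACGTG), the CCAAT box (CCAAT), the GC box (GGGCGG) and the TATA box (TATAAA).
S100A4: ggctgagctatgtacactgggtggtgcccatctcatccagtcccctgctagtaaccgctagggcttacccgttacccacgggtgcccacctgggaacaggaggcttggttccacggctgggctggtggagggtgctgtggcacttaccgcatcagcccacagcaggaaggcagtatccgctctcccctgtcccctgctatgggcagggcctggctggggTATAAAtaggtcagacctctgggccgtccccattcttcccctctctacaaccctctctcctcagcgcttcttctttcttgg
TMEM187: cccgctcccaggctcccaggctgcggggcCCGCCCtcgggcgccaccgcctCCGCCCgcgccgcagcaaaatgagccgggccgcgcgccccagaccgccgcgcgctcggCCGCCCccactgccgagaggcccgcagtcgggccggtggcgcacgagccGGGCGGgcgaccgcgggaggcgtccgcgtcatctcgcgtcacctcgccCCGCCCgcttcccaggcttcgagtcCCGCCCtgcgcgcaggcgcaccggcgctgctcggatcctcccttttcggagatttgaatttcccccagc
RENBP: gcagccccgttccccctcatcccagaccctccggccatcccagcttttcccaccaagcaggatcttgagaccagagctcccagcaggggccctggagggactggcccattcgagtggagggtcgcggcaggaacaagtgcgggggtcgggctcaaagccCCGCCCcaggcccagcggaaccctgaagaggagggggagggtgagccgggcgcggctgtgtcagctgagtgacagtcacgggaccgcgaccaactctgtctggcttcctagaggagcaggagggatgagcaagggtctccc
The S100A4 window holds 1 TATA box and no match to the other 6 motifs, the TMEM187 window 6 GC boxes and the RENBP window 1 GC box. The share of G and C was 60.7% for S100A4, 77.7% for TMEM187 and 67% for RENBP, against a median of 58.7% over 35116 RefSeq promoters. Motifs were counted for 8 of the 9 genes, and STC1 was left out. A GC box was found in 7 of these 8, a CCAAT box in 4 and a TATA box in 1, against 45.0%, 34.6% and 11.5% of all promoters. A gene was counted when any of its promoters matched, and COLEC11, HBP1 and ZCWPW1 have 2 promoters each. The shares are per promoter, so the counts of genes cannot be compared with them directly. AP-1, CRE, ATF4 composite and E-box letters were found in 0 of the 8, and in 7.71%, 1.85%, 3.62% and 7.26% of all promoters. No capitals in the windows shown belong to more than 1 of the 7 motifs. These matches are letters in a window and say nothing about which factors bind there.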

How the data were processed

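The deposited scanner values are mean bead intensities per probe, per the file headers, with bead standard errors, bead numbers and detection p-values. They were made with BeadStudio per the submitters' processing notes, and the sources used here give neither its version nor a genome build. The authors' processed table, also an intensity, is a straight-line function of them on each array with a mean of 238.3. In R 4.3.3 with limma 3.58.1, neqc subtracted background, added an offset of 16, quantile-normalized and took log2. A probe was kept when both arrays of any 1 group detected it (p-value under 0.01), which left 10021. Each gene took its brightest kept probe with 1 symbol, which gave 8018 genes. The 3 groups were fitted together (lmFit, eBayes, 3 residual and 7.42 prior degrees of freedom), two-sided, with Benjamini-Hochberg adjustment over all genes. The test was checked on simulated data.

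The members and lists were chosen with earlier results of these data known. Of each list up to 3 genes are named by smallest p at 4 µg against the control and up to 2 by smallest p between the doses, with called neighbours within 3 genes and the 2 genes most alike each member except HBP1. A probe below detection on all arrays of a group gives a bound, taken from the lowest detected signal of each array. Alternatives changed the background correction, the scaling, the detection filter, the probe rule, the samples fitted, the replicate block and each single array.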

Additional observations from a re-analysis of the deposited data

How the results depend on the processing

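All 9 members met the rule under every alternative run for them (all but the fit of only the groups compared) except the filter that asked for detection on all 6 arrays, where HBP1 dropped out and 8 of 8 did. Of 402 values of members under the alternatives 342 moved by less than 1 SD and none changed sign. Calls were 1760 at 4 µg against the control, from 728 to 2009 when 1 array was left out, and 705 at 4 µg against 2 µg, from 96 to 559. At 2 µg against the control they were 3335, from 2472 to 3110. Without 4 µg replicate 1 or 2, 2 µg replicate 1, or control replicate 1 or 2, a count fell by over 1.5 times: to 728, 739, 772 and 937 at 4 µg without 4 µg replicate 1, 4 µg replicate 2, control replicate 1 and control replicate 2, and to 96, 121 and 202 between the doses without 4 µg replicate 1, 4 µg replicate 2 and 2 µg replicate 1. The lone array is then assumed to vary like the other groups. Without a detection filter 273 genes were called between the doses, over 18774 genes tested. Scaling each array to the median of all probes moved the typical tested gene to 0.18 at 4 µg and 0.15 between the doses, and the split of calls went from 943 higher and 817 lower to 1600 and 357 at 4 µg, and from 419 and 286 to 870 and 102 between the doses. At 4 µg it was 1215 and 536 with the authors' processed intensities and 771 and 1050 with median scaling over tested genes. With the replicate number as a block 1753 genes were called at 4 µg, 709 between the doses and 3330 at 2 µg. GNPDA1, SCD and FADS1 at 4 µg were then not called (adjusted p of 0.0635, 0.0502 and 0.0563). Whether the replicate numbers pair the arrays is not known. Differences between duplicates correlated at -0.041, -0.093 and 0.115 between groups, which cannot settle it. Signals near background limit HBP1, the control levels of COLEC11 and RENBP, the 2 µg level of S100A4 and the 4 µg level of STC1.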
